A study of Homo sapiens with 4 samples.

Results

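The last 11.5 Mb of the long arm of chromosome 5 held 1488 of the 68937 PML peaks called in MDA-MB-231, a human cell line established from a triple-negative breast tumour. The region is every peak of the deposited table on chromosome 5 with a start at or above 170000000 (hg38), and it was chosen by the peak counts of this same table, so its density is a description and was given no test. PML had been immunoprecipitated with a PML antibody from cross-linked cells, and the 2 PML ChIP libraries and 2 input libraries differ in the labels only by that immunoprecipitation: no treatment, genotype or time separates them. The authors merged the duplicates, with the inputs as reference, so 1 list without replicate error is all that was compared here. The line stands for 1 tumour. All intervals below are exact 95% intervals that cover counting error only; read depth is unknown from the table.

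PML, the promyelocytic leukaemia protein, is a TRIM family protein that assembles into nuclear bodies, where SUMO-modified proteins such as SP100 and DAXX gather. PML itself has no known sequence-specific DNA-binding domain, and a ChIP peak marks DNA that was cross-linked to PML directly or through other proteins and chromatin. Distal 5q is a gene-rich stretch near a chromosome end. It carries genes for autophagy (SQSTM1), stress kinases (MAPK9), nucleolar and ribosomal proteins (NPM1, RACK1), ubiquitin ligases of the TRIM family and a run of KRAB zinc finger genes.

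The promoters under 3 of the highest peaks of the region are shown with 1 that had no peak, as examples of the sequence behind the scores. Each run is the 250 bases upstream of the RefSeq gene start (GRCh38.p14), 5′ to 3′ on the strand of the gene. Capitals mark matches, on either strand, to the motifs searched here, which are listed further on.
TRIM41, chr5:181223031-181223280, plus strand: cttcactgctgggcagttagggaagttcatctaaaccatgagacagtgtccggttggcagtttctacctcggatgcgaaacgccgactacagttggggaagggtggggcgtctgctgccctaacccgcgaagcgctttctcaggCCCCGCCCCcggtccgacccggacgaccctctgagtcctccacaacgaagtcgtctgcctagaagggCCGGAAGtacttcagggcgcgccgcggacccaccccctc
RNF130, chr5:180071760-180072009, minus strand: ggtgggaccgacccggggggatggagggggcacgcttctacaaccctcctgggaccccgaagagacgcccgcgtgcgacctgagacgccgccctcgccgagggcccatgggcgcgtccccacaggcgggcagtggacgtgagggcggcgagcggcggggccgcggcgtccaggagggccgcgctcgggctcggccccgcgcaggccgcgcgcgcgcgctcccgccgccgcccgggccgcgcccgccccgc
MAPK9, chr5:180292084-180292333, minus strand: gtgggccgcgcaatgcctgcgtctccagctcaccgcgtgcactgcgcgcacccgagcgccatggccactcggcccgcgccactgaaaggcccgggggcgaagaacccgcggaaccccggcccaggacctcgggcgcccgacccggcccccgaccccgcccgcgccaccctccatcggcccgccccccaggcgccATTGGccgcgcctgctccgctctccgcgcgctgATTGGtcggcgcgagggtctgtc
SLC34A1, chr5:177384184-177384433, plus strand: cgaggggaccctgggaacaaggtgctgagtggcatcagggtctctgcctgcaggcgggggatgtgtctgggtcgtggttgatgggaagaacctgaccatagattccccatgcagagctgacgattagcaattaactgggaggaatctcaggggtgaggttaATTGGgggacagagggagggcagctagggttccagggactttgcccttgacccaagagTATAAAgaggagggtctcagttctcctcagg

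TRIM41, a ubiquitin ligase gene, had the highest peak of the region, with a score of 600. RNF130, which encodes a RING finger ligase, had 446, and MAPK9, the gene of the stress kinase JNK2, had 435. SLC34A1, a kidney phosphate transporter gene, had no peak within 1000 bp of its start. The GC content of these 4 runs was 62.8%, 82%, 77.6% and 56.4%. Their ratio of observed to expected CpG was 0.86, 1.02, 1.02 and 0.22, in the same order. Over the 107 promoters of the region with sequence, GC content had a median of 65.2% and a range from 38.4% to 82.8%, and over all protein-coding promoters a median of 62.4%, so TRIM41 lies below the median of the region.

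PML peaks were dense over the whole region and sparse over most of the arm below it. Distal 5q held 129.7 peaks per Mb (interval 123.2 to 136.5) against 22.1 per Mb (21.4 to 22.8) over the rest of chromosome 5, a ratio of 5.87 (5.53 to 6.24). It made up 6.32% of the chromosome's length and 28.4% of its 5242 peaks. Peaks covered 8.85% of the bases of the region and 1.23% of those of the rest. Each of the 12 bins of 1 Mb held between 69 and 212 peaks, with a median of 121.5; the last bin is not full. In the 10 Mb just below, the bins held between 0 and 39 peaks, with a median of 4. The peak just inside the border, from 170003150 to 170003970 in an intron, had a score of 48. The nearest one outside, from 169970954 to 169971869, also in an intron and assigned to INSYN2B like the first, had 82. The 2 bins just outside held 39 and 31 peaks and the first bin inside 79, so the border does not fall at a sharp step.

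**Figure D1:**
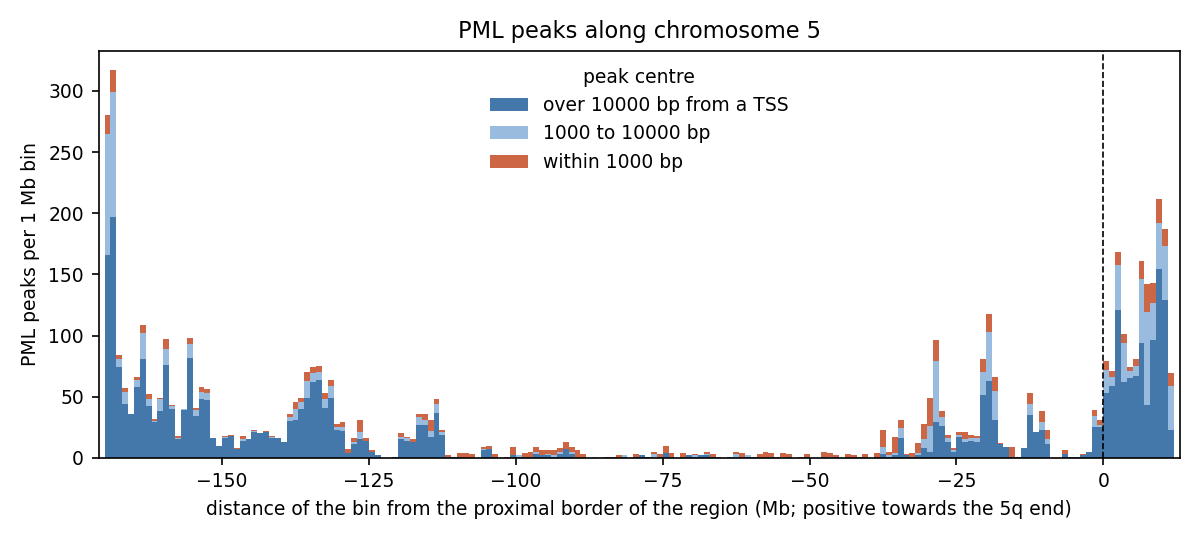
PML peaks in each 1 Mb bin of chromosome 5 (vertical axis, stacked by distance of the peak centre to the nearest TSS), placed by distance in Mb from the proximal border of distal 5q (dashed line). The 12 bins at the right hold 69 to 212 peaks each, and the first 2 bins of the short arm, with 280 and 317, are the only ones that exceed them all.

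The other end of the chromosome was dense too. The first 10 Mb of chromosome 5 held 108.2 peaks per Mb, so distal 5q was 1.2 times as dense (1.11 to 1.30). Between 50 and 170 Mb there were 11.7 per Mb. Gene density differed between these stretches: distal 5q had 10.5 RefSeq protein-coding genes per Mb, the first 10 Mb had 5.3, and the stretch from 50 to 170 Mb had 5.13. Per protein-coding gene, distal 5q held 12.3 peaks, the first 10 Mb 20.4 and the middle stretch 2.28. Over the genome, the bin from 170 to 180 Mb ranked 4 of 312 bins of 10 Mb by peak count, with 1232 peaks against a median of 140. Among the 47 bins with 80 to 120 protein-coding genes its count ranked 2, with a median of 185 in those bins. DNA copy number, mappability and input signal were not analysed here, and their part in the density was not tested.

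Peaks of the region lay close together. The median gap between neighbours was 3045 bp, against 9612 bp in the rest of the chromosome. Gaps under 1000 bp made up 21.5% and 12.1%. In the first 10 Mb of the chromosome spacing was closer still, with a median gap of 2686 bp and 24.8% of gaps under 1000 bp. When peaks up to 1000 bp apart were joined, 1168 stretches remained in distal 5q and 3301 in the rest, and the ratio of their densities was 5.24. Of the 115 bins of 100 kb in the region, 2 held no peak, whereas 793 of 1700 did in the rest of the chromosome. The longest gap measured 131063 bp, from 177134677 to 177265739, and lay wholly inside NSD1, the gene of a histone H3 lysine methyltransferase. The densest 100 kb of the region, with 37 peaks, began at 179200001 within ADAMTS2. In the rest of chromosome 5 the densest held 42. Bins of 100 kb with 20 or more peaks numbered 25 of 115 in the region and 19 of 1700 in the rest.

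Most of these peaks were intronic or intergenic. Introns held 665 peaks (44.7%, interval 42.1 to 47.3%), intergenic DNA 578 (38.8%), exons 89 (5.98%), 3' UTRs 28 and transcript ends 39. In the rest of chromosome 5, introns held 38.9%, intergenic DNA 41.8% and exons 5.97%. By distance, 966 peaks (64.9%) lay over 10000 bp from a TSS and 386 (25.9%) between 1000 and 10000 bp. In the rest these shares were 68.0% and 17.8%. Peaks over 100000 bp from a TSS made up 8.06% here and 19.9% there. From 50 to 170 Mb, 30.8% of peaks were intergenic, 52.7% lay over 10000 bp away and 10.5% over 100000 bp. In the first 10 Mb these shares were 48.1%, 70.7% and 17.2%. For intergenic peaks and peaks over 10000 bp the direction thus depends on the stretch compared. Between 1000 and 10000 bp the first 10 Mb had 24.2%, within the interval of distal 5q (23.7 to 28.2%). At promoters, at most 1000 bp from a TSS, lay 136 peaks (9.14%, 7.72 to 10.7%), against 14.3% in the rest. The direction of that comparison depends on the stretch used: the share was 27.2% between 50 and 170 Mb and 5.08% in the first 10 Mb.

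Repeats were named for 366 peaks (24.6%, 22.4 to 26.9%) against 32.3% in the rest of chromosome 5. LTR elements accounted for 116 peaks (7.80% against 14.6%) and LINEs for 123 (8.27% against 11.3%). SINEs went the other way, with 80 peaks (5.38% against 3.06%). The lower share of repeats depends on the stretch compared: repeats were named for 24.8% of the whole list, 26.1% of peaks from 50 to 170 Mb and 18.1% in the first 10 Mb, where the direction turned. For LINEs it turned there too, at 4.99%, with 8.41% over the whole list. For LTR elements the first 10 Mb had 8.78%, within the interval of distal 5q (6.48 to 9.28%). SINEs made up 1.39% in the first 10 Mb, 3.35% from 50 to 170 Mb and 3.6% of the whole list, all below distal 5q. By family, 72 peaks were at L2 elements, 52 at MIR, 49 at L1 and 48 at ERVL-MaLR elements. L2 and MIR are long inactive in the human genome. Shares of families in other stretches were not set beside these counts, so their order is read as no trait of the region. The element named most often among LTRs of the ERV1 group was LTR12C, at 8 peaks with scores up to 107. Peaks at repeats had a median score of 35, and the others 40. In the rest of chromosome 5 these medians were 31 and 37. Over 10000 bp from a TSS in distal 5q they were 34 and 38.

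Promoter peaks were few among all peaks but covered most genes. Of the 121 RefSeq protein-coding genes that start in the region, 103 (85.1%, 77.5 to 90.9%) had a promoter peak, meaning a peak centred at most 1000 bp from a TSS whose nearest gene they are. The same held for 54.4% of all 20056 RefSeq protein-coding genes, and 412 of 783 (52.6%) in the rest of chromosome 5. A high share here was known when the region was chosen, so nothing further is read from it. In the first 10 Mb of the chromosome, where peaks were nearly as dense, 32 of 53 genes (60.4%, 46.0 to 73.5%) had one.

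Scores of promoter peaks were higher in distal 5q than over the rest of the chromosome, and the medians of distant peaks differed by less. The score is the authors' own, on a scale that the file does not state. The 136 promoter peaks had a median of 135.5, with quartiles of 52.75 and 233.5. The 536 promoter peaks of the rest had a median of 59.5, with quartiles of 36 and 110. With a window of 5000 bp in place of 1000 bp, both medians were 47. Of the promoter peaks within 1000 bp in distal 5q, 50 (36.8%, 28.7 to 45.5%) reached 200, and of those in the rest, 40 (7.46%, 5.38 to 10.0%). Over 10000 bp from a TSS the medians were 37 and 33. Among 10 Mb bins of the genome with 20 or more peaks of the kind ranked, the bin from 170 to 180 Mb ranked 6 of 238 by its median promoter score (120, against 58 for the median bin) and 6 of 236 by its median distant score (37, against 31). Promoter peaks were also wider here, with a median of 1188 bp against 744 bp. Among promoter peaks of like width, 800 to 1600 bp, the medians were 159 over 52 peaks and 90 over 201. In the first 10 Mb of the chromosome, 55 promoter peaks had a median score of 85 and a median width of 1155 bp. Peaks there over 10000 bp from a TSS had a median score of 36. Peaks and scores come from 1 list, so no replicate error could be set against these differences, and they were not tested.

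**Figure D2:**
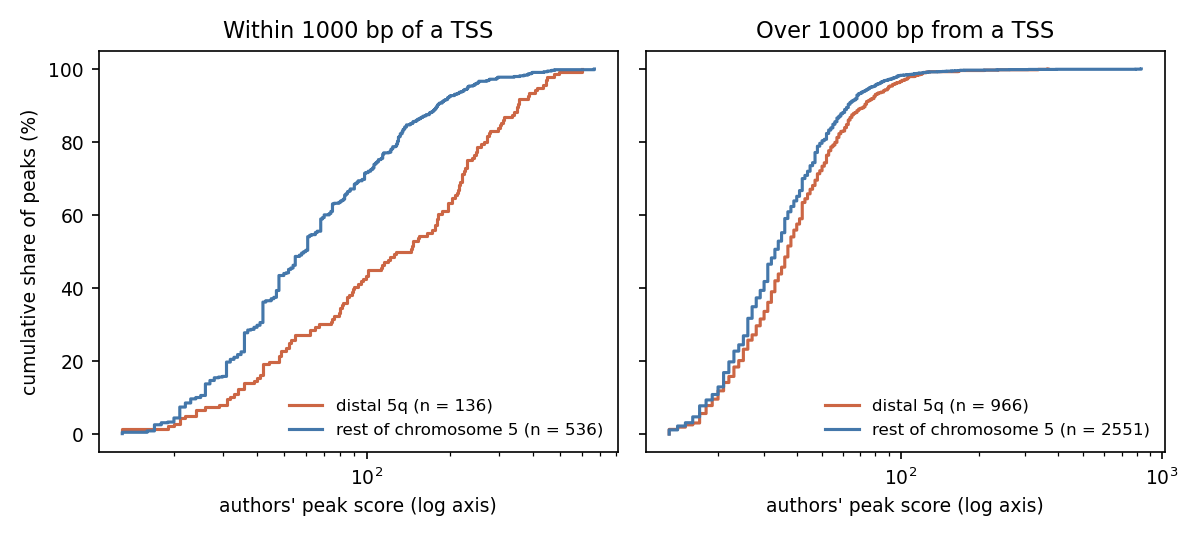
Cumulative share of peaks (vertical axis, %) up to a given peak score (horizontal log axis) for distal 5q and for the rest of chromosome 5, for peaks within 1000 bp of a TSS (left) and over 10000 bp from one (right). The curves lie apart for promoter peaks, with medians of 135.5 and 59.5, and nearer together for distant peaks, with medians of 37 and 33.

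The highest promoter scores lay nearest the chromosome end. Taking the highest promoter peak of each gene, the median score was 85 over 10 genes in the first 2 Mb of the region, 119 over 15 genes in the next 3 Mb and 187 over 19 genes in the next 2 Mb. It was lower, 145 over 31 genes, in the 2 Mb after that, and 289 over 28 genes in the rest up to the chromosome end. Of the 44 genes with a score of 200 or more, 20 lay in this last segment. Distant peaks varied less, with medians of 33, 36, 37, 32 and 40 over the same segments.

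The 10 protein-coding genes with the highest promoter peaks were TRIM41, TRIM7, SQSTM1, RNF130, B4GALT7, MAPK9, TBC1D9B, GFPT2, CNOT6 and MAML1. All of them except B4GALT7 lie in this last segment. TRIM7, a ubiquitin ligase gene next to TRIM41, had a score of 477 from 181203540 to 181206301. SQSTM1, which encodes the autophagy receptor p62, had 447 in its first intron, 383 bp from a TSS. B4GALT7, a galactosyltransferase of proteoglycan linker synthesis, had 445. TBC1D9B, a gene with a Rab GTPase-activating domain, had 411, and GFPT2, of the hexosamine pathway, had 405. CNOT6, a deadenylase subunit of the CCR4-NOT complex, had 384, and MAML1, a Notch co-activator, had 354.

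The widest peaks sat over SQSTM1 and its neighbour MGAT4B, an N-glycan branching enzyme gene. A peak of 6354 bp ran from 179818112 to 179824465 in SQSTM1, and another of 5216 bp (score 348) covered its upstream start. Overlapping MGAT4B and LTC4S, a leukotriene synthase gene, a peak of 5970 bp ran from 179795006 to 179800975 with a score of 494, the second highest of the region. Further wide peaks were 5806 bp in intron 5 of B4GALT7 (score 98) and 5559 bp in intergenic DNA near LINC01962 (score 285). In all, 47 peaks of the region (3.16%, 2.33 to 4.18%) were 2000 bp or wider, against 1.17% in the rest of chromosome 5. The share was 2.13% (1.35 to 3.17%) in the first 10 Mb of the chromosome and 1.69% over the whole list.

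Peaks covered microRNA genes in a few places. Of 11 microRNA hairpins that RefSeq places in the region, 4 overlapped a peak by at least 1 base (36.4%, 10.9 to 69.2%). Over the genome 176 of 1562 hairpins did (11.3%), and in the rest of chromosome 5, 3 of 55 (5.45%, 1.14 to 15.1%). Peaks cover 8.85% of the bases of the region, and with 11 hairpins the interval is wide. The 2 highest peaks of the region each overlapped one: the peak of 5970 bp holds MIR1229, and the TRIM41 promoter peak holds MIR4638. Their mature sequences are given 5′ to 3′ with the seed, bases 2 to 8, in capitals; the 4 seeds differ. Whether PML bears on either microRNA cannot be read from a peak.
hsa-miR-1229-5p: gUGGGUAGgguuugggggagagcg
hsa-miR-1229-3p: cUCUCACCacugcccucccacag
hsa-miR-4638-5p: aCUCGGCUgcgguggacaagu
hsa-miR-4638-3p: cCUGGACAccgcucagccggccg

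The genes were also described by 7 lists of known function, which together hold 90 of the 121 genes. Of these 90, 78 had a promoter peak, as did 25 of the other 31. With 85.1% of the region's genes bearing one, a high count in a list is read as no property of the list.

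Ubiquitin ligases and related genes had a promoter peak at 10 of 11 members, with a median score of 213.5 over those 10. Besides TRIM41, TRIM7 and RNF130, UIMC1, the RAP80 subunit of the BRCA1-A complex, had 231. The remaining member, TRIM52, shares its start with the antisense gene TRIM52-AS1, to which the table gives the peak there, with a score of 386. Secretory pathway and glycosylation genes had one at 13 of 14, with a median of 298, the highest of the 7 lists. CANX, the chaperone calnexin, had 312, and MGAT1, which starts complex N-glycan synthesis, had 298. RAB24, a small GTPase gene, had none assigned; its start lies under the peak given to PRELID1, with a score of 181. The peaks assigned to MGAT1 and HNRNPH1 lie at starts other than the RefSeq gene start.

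Among genes of the ribosome, nucleolus and RNA processing, 10 of 12 had a promoter peak, with a median score of 194. After CNOT6 came DDX41, an RNA helicase gene (265), HNRNPH1, a splicing regulator gene (231), and RANBP17, a nuclear transport receptor gene (213). RACK1, a protein of the small ribosomal subunit, had 209. NPM1, the nucleolar protein nucleophosmin, had 115, and NHP2, of the H/ACA ribonucleoprotein, 86. NOP16 and EIF4E1B had none assigned. NOP16 shares a divergent start with HIGD2A, to which the table gives the peak there (score 197), and the EIF4E1B start lies under the peak assigned to SNCB (216).

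All 14 chromatin and transcription regulators had a promoter peak, with a median score of 180.5 and a wide range. MAML1 was followed by ZFP62 (314), ZNF354C (280) and ZNF354B (249), all but MAML1 zinc finger genes. NSD1 had 217. Towards the lower end, FOXI1, a forkhead factor of inner ear and kidney, had 29. Kinase, phosphatase and growth factor genes had one at 12 of 14, with a median of 145.5. DUSP1, a MAP kinase phosphatase, had 353, N4BP3 335 and FLT4, which encodes the lymphatic receptor VEGFR3, 226. STC2 and PDLIM7 had none within 1000 bp, but peaks assigned to them overlapped the window around their RefSeq start, with scores of 158 and 150.

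Neuronal, immune and sensory genes had the lowest median score of the 7 lists. The list also holds a few genes of other tissues, such as SLC34A1 of the kidney. Of 22 in the region, 16 had a promoter peak, with a median score of 66 and a range from 20 to 251. UNC5A, a netrin receptor, had 251, SNCB, beta-synuclein, 216, GPRIN1 179 and GRM6, a glutamate receptor of the retina, 145. HK3, a hexokinase of blood cells, had 20, and DRD1, a dopamine receptor, 42. The olfactory receptor gene OR2V2 had 75. KCNIP1, KCNMB1, SLC34A1, OR2Y1, BTNL3 and OR2V1 had none assigned. Expression was not measured in these samples, so which of these genes are silent in the line is not known from the data. The 3 genes listed under extracellular matrix all had a promoter peak: ADAMTS2 (221), COL23A1 (74) and CDHR2 (277), of which CDHR2 encodes a cadherin-related adhesion protein of the cell surface and not a matrix protein.

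**Figure D3:**
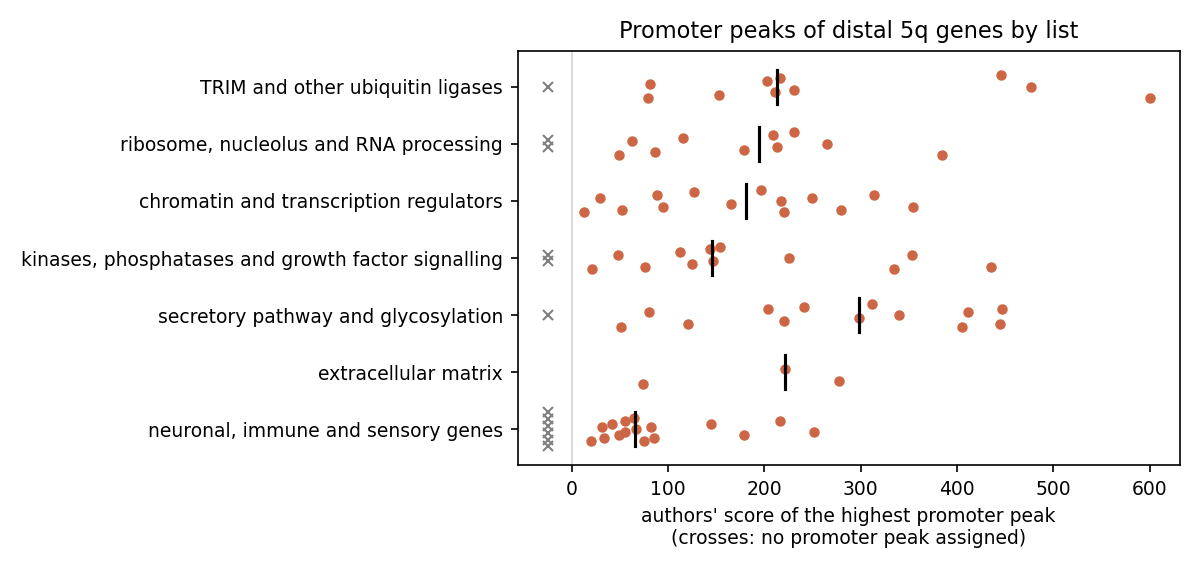
Score of the highest promoter peak (horizontal axis) for each gene of the 7 lists; black bars are medians, and crosses at the left are genes with no promoter peak assigned. Medians run from 66 for neuronal, immune and sensory genes to 298 for secretory pathway and glycosylation genes, and the points of all lists overlap.

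For 8 of the 18 genes without an assigned promoter peak, a peak overlapped the 1000 bp on either side of the RefSeq start. Another 8 had no peak there, among them KCNIP1, SLC34A1, EFCAB9 and OR2Y1, and 2 had no RefSeq start in the table used. By this second measure 97 of 107 genes (90.7%) had a peak at the start, against 61.9% in the rest of chromosome 5. FAM153A, BTNL3 and OR4F3 belong to families with near-identical copies, where reads can be split or lost. Mappability was not analysed, so whether this bears on their lack of a promoter peak was not tested.

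ADAMTS2, which encodes the protease that trims the amino end of procollagens, held more peaks than any other gene of the region. The table names it as nearest gene of 74 peaks, rank 10 of 18319 genes in the whole list. The gene itself (179110853 to 179345461, 234.6 kb) was overlapped by 85 peaks, of which the table gives 31 to ZNF354C. That is 36.2 peaks per 100 kb, with a median gap of 1424 bp. Introns held 80 of the 85, with 25 in intron 3 and 24 in intron 2. Scores ran from 13 to 221 with a median of 39, close to the median of 38 over the region, and the highest was the promoter peak. In the rest of chromosome 5 the highest count by nearest gene was 40, for ICE1. By overlap per 100 kb among genes of 50 kb or longer, SLC6A3, a dopamine transporter gene of the short arm, had 45.6, above ADAMTS2.

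Next by nearest gene came ZNF354C with 37 peaks, PHYKPL with 34, CPLX2 with 32, UNC5A with 30, COL23A1 with 28, FGF18 and LINC01411 with 27 each, SMIM23 with 26 and GFPT2 with 25, a count that LOC100128340 and SH3PXD2B shared. These counts depend on where neighbouring starts lie: ZNF354C itself was overlapped by 1 peak and PHYKPL by 5. By overlap with the gene, COL23A1, a transmembrane collagen, had 58, KCNIP1, a potassium channel partner, 33 and ERGIC1, of the early secretory pathway, 32. RASGEF1C had 31 and STK10, a lymphocyte kinase, 29. The 10 genes with most peaks, of 168 named as nearest gene, held 22.8% of the peaks of the region. In the rest the 10 were of 774 genes and held 9.19%, so the shares do not compare directly.

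Long genes varied widely. The 34 protein-coding genes of 50 kb or longer held a median of 10.8 peaks per 100 kb and none was without a peak. In the rest of chromosome 5, 358 such genes had a median of 1.53, and 52 had none. Yet 7 of the 34 had at most 2 peaks. NSD1 (168.4 kb) had a promoter peak and 1 other, FBXW11 (145.1 kb), an F-box ligase subunit, had 2, and RANBP17, the longest protein-coding gene of the region, had 11. FLT4, just under the length limit, had 43.0 per 100 kb, including a peak of 3831 bp over exon 17.

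**Figure D4:**
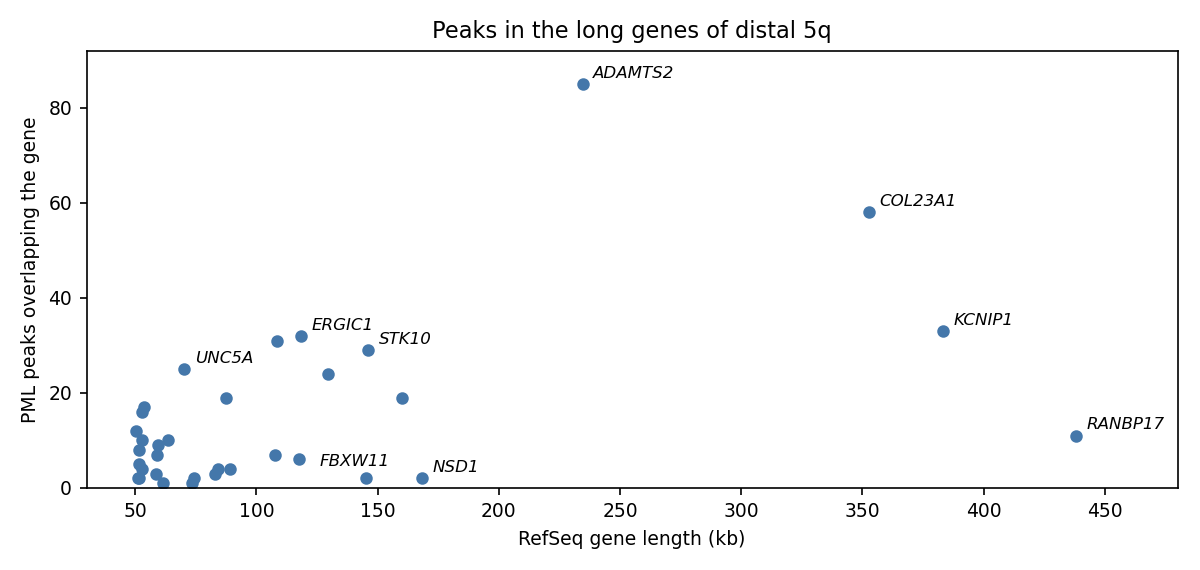
Number of PML peaks overlapping each protein-coding gene of 50 kb or longer in distal 5q (vertical axis) against its RefSeq length in kb (horizontal axis). ADAMTS2 stands highest with 85 peaks, while NSD1 and FBXW11, of 168.4 and 145.1 kb, had 2 each.

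Distant peaks with high scores were rare. Of the 966 peaks over 10000 bp from a TSS, 34 (3.52%, 2.45 to 4.88%) reached a score of 100, against 1.76% in the rest of chromosome 5. The 5 highest were an intergenic peak near LINC01962 (181173141 to 181174518, score 366), the FLT4 exon 17 peak (180618373 to 180622203, 336) and an intergenic peak near OR2V1 (181101149 to 181101517, 236). They were followed by a peak in intron 6 of RASGEF1C (180126902 to 180127754, 209) and one in intron 3 of ADAMTS2 (179264274 to 179266207, 168). None of the 5 was annotated to a repeat, and 28.9% of all 966 were.

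Medians of promoter composition differed with the score, while the ranges overlapped widely. RefSeq held promoter sequence for 107 of the 121 genes (88.4%). Over the 250 bases upstream of the start, GC content had a median of 71.6% for the 41 genes with a promoter score of 200 or more, 63.6% for the 50 with a lower score and 56.6% for the 16 without one. The median ratio of observed to expected CpG was 0.88, 0.71 and 0.44 in the same order. It was 0.74 over all 15843 protein-coding promoters with sequence and 0.75 over those of the rest of chromosome 5. GC content ran from 41.2% to 82%, from 38.4% to 82.8% and from 38.8% to 78.8% in the same order of groups. Promoters outside the region were not split by score. The groups follow the assigned peak, which need not lie at the start whose sequence was read. Of the 16 genes without one, 8 had a peak at that start. Conversely, MGAT1 (298) and HNRNPH1 (231) had an assigned peak but none at that start.

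8 motifs were searched on both strands of these runs, and a match is a description of the letters, not a site of binding. GGGGCGGGG, the GC box of SP and KLF factors, was in 34 of 107 promoters (31.8%, 23.1 to 41.5%), against 21.8% of all promoters. CCGGAAG, an ETS core, was in 11.2% against 11.8%, CACGTG, the E-box, in 8.41% against 7.84%, and TGANTCA, the AP-1 site, in 4.67% against 5.04%. CCAAT was in 29.9% against 34.5% and TATAAA in 4.67% against 9.23%. The NRF1 palindrome was in none, against 1.48%.

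The remaining motif was ACTACA, any pair of bases and TCC, a short form of the element bound by ZNF143 and linked to RONIN (THAP11), which the title of the series names with PML. It was in 9 of 107 promoters (8.41%, 3.92 to 15.4%), against 1.76% in the rest of chromosome 5 and 2.82% of all promoters. The sites are few and not independent: 3 belong to the paralogs ZNF354A, ZNF354B and ZNF354C, and NOP16 and HIGD2A share 1 site between their divergent starts. The 9 matches are shown in capitals within 30 bases, on the strand of the gene (GRCh38.p14).
C5orf58, chr5:170232888-170232917, plus strand: ttgcctgggACTACAACTCCcaggatgccg
FBXW11, chr5:172006672-172006701, minus strand: cgcctgctgGGAGGTGTAGTccccgatctg
BOD1, chr5:173616761-173616790, minus strand: accctgccgGGAGTTGTAGTttctctcggc
THOC3, chr5:175968338-175968367, minus strand: tgcataccgGGATTTGTAGTcccttccggg
HIGD2A, chr5:176388637-176388666, plus strand: ggcatttggGGAAATGTAGTccttttgtag
NOP16, chr5:176388636-176388665, minus strand: tacaaaaggACTACATTTCCccaaatgccc
ZNF354A, chr5:178730764-178730793, minus strand: acgcatggaACTACACTTCCccgaatgcag
ZNF354B, chr5:178859888-178859917, plus strand: acgcgtggaACTACACTTCCcagaaagcca
ZNF354C, chr5:179060321-179060350, plus strand: cgtcccctgGGAAGTGTAGTcggcgtgggg

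Of these 9 genes, 8 had an assigned promoter peak, as had 91 of the 107 genes with sequence, so the count is near that of the region. Scores were 280 for ZNF354C, 249 for ZNF354B, 203 for FBXW11, 197 for HIGD2A, 196 for ZNF354A, 176 for BOD1, 62 for THOC3 and 42 for C5orf58. Over the 103 genes of the region with a promoter peak, the median was 176 and the range 13 to 600.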

How the data were processed

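PML ChIP DNA and input DNA from MDA-MB-231 cells were sequenced as 2 libraries each. Per the submitters' processing notes, the authors' tools included HOMER 4.11.1, MACS2 2.1.1.20160309, Picard 2.0.1, BWA 0.7.12 and Trimmomatic 0.36, on hg38, with settings not given in the sources used here. Deposited by the authors was 1 annotated peak list of the merged duplicates, with a peak score in whole numbers of 13 or more and, per the file headers, positions and distances to a TSS in bp. Depth per sample is unknown from the list.

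Members were the rows on chromosome 5 with a start of 170000000 or more; the region was taken to end at 181472479, the last RefSeq gene or peak end of the chromosome. The members and the gene lists were chosen with earlier results of these data known. No test was run. Shares have exact Clopper-Pearson 95% intervals, and densities exact Poisson ones. A promoter peak was centred within 1000 bp of a TSS by the deposited distance. RefSeq genes and sequences were of GRCh38.p14, and 79 of 106 promoter peaks with a RefSeq start implied a TSS within 2 bp of it. Genes were named by a fixed rule: the 10 with most peaks, the 10 with the highest promoter peak, the 5 highest distant and 5 widest peaks, and up to 4 of each list with members lacking a peak, plus borders of runs without one (not described) and extreme bins; other genes named were picked after their values were seen. The values of 1 gene are not reported here. Counting steps were tested on simulated data. Python 3.11.15, pandas 2.3.3 and scipy 1.17.1 were used.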

Additional observations from a re-analysis of the deposited data

How the results depend on the processing

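No paired analysis was possible because 1 merged list keeps no replicate apart. Over 37 alternatives, 1 direction turned. That count holds 2 alternatives that set the peak count of a gene against 0 and could not turn. It also holds, as not turned, the median promoter score with 5000 bp, where both medians were equal. Density chose the region, and its ratio of 5.87 stayed above 1 in each alternative run. It was 6.58 with peaks at or above the median score, 8.25 with the 5000 highest-scoring peaks, 4.27 and 6.33 with the border moved 5 Mb down and up, 11.1 against the rest of 5q and 2.56 per protein-coding gene. Of those chosen after seeing the data, joined peaks gave 5.24, leaving the first 10 Mb out of the rest gave 7.77 and comparing with the first 10 Mb alone gave 1.2. Peaks per protein-coding gene, not among the alternatives for the first 10 Mb, went the other way there, at 12.3 against 20.4. The share of peaks at promoters was 7.46% with a 500 bp window, 22.6% with 5000 bp, 3.70% by the promoter-TSS class and 13.3% among peaks at or above the median score, against 12.1%, 24.5%, 8.76% and 20.6% in the rest. With 5000 bp the value of the rest lies within the interval of distal 5q (20.5 to 24.8%). Against the first 10 Mb its direction turned, at 9.14% against 5.08%. The share of genes with a promoter peak was 76.0% with 500 bp, 92.6% with 5000 bp and 56.2% with the 5000 highest-scoring peaks, against 48.3%, 61.8% and 17.9% in the rest of chromosome 5. The median promoter score, whose alternatives were all chosen after seeing the data, was 196 by the promoter-TSS class. With a 5000 bp window it was 47, and also 47 in the rest of chromosome 5. The cause of these changes was not tested unless the setting itself shows it. The unknown depth and the merged duplicates limit every value.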
